A study of Mus musculus with 7 samples.

Results

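The genes described here are 7 rows of a table of 50435 genes, taken by name: Hmgcs1, Idi1, Fdps, Fdft1, Sqle and Lss, which encode enzymes of cholesterol synthesis, and Insig1, which encodes a sterol sensor. The measurements are RNA sequencing of mouse marrow cells that were gated to collect sinusoidal endothelium, which lines the venous vessels of the marrow. The gate took CD31-positive, Sca1-negative cells without stain for CD45, Ter119, Gr1 or CD11b. All mice were irradiated wild-type recipients of Zbtb46dtr marrow, in which the diphtheria toxin receptor follows Zbtb46, a gene that marks classical dendritic cells and is also known from erythroid precursors. The 3 DT samples came from mice injected 8 weeks after transplantation with 200 ng of diphtheria toxin (DT) in 100 µl of PBS, and the 4 PBS samples from mice given 100 µl of PBS alone, with harvest 1 day after injection. Only cells grown from the donor marrow carry the receptor, and the recipients' own vessels do not. The sources used here do not give strain, age or pooling of mice. The labels call the samples biological replicates.

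Cells build cholesterol from acetyl-CoA through mevalonate, farnesyl diphosphate, squalene and lanosterol. When membrane sterol is low, the protein Scap carries the transcription factor SREBP2 out of the endoplasmic reticulum to be cut and freed, and SREBP2 then raises the genes of the pathway. When sterol is high, Insig proteins hold Scap back, and Insig1 is itself an SREBP target, which closes a feedback loop.

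Promoter sequences are shown because SREBP2 and its partner NF-Y are known to act close to the start site of these genes. RefSeq start sites on GRCm38.p6, the mm10 build, were available for 4 of the 7 genes (Hmgcs1, Idi1, Lss and Insig1). The 250 bases before each start were searched on both strands for TCACNCCAC (a sterol response element, SRE), CCAAT (the NF-Y box), CACGTG (an E-box) and GGGCGG (a GC box). Each stretch is written 5′ to 3′ on the plus strand, on which all 4 genes lie, with SRE, NF-Y box and E-box matches in capitals and GC boxes left in lower case. They span chr13:119690101-119690350, chr13:8885356-8885605, chr10:76531355-76531604 and chr5:28071162-28071411 in the order below. No match in them overlapped another. GENCODE vM21 places the gene starts of Idi1, Lss and Insig1 inside these stretches and that of Hmgcs1 after its end.
Hmgcs1: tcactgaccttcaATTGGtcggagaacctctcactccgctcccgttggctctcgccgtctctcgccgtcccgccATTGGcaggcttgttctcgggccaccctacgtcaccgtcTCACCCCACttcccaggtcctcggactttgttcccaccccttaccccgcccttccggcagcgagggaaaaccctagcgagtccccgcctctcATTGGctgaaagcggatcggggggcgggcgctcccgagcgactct
Idi1: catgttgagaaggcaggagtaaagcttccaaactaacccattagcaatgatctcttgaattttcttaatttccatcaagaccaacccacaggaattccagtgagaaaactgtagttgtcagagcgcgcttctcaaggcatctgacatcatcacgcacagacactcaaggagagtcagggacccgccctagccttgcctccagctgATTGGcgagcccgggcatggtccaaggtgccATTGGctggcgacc
Lss: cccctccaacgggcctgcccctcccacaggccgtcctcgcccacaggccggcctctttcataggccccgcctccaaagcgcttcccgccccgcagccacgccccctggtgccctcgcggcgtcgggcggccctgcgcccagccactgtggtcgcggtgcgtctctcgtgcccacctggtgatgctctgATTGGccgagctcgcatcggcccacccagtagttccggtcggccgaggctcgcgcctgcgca
Insig1: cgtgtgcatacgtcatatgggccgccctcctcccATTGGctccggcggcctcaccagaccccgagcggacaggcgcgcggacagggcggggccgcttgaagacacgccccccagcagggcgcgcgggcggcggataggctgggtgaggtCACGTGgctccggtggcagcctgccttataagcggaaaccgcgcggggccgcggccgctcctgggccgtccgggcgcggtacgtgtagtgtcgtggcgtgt

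The SRE letters were found in Hmgcs1 alone of the 4, as TCACCCCAC beginning 137 bases before the start, and in 1.05% of the 32851 mouse promoter windows of the same length. NF-Y boxes were found in all 4, with 3 in Hmgcs1, 2 in Idi1 and 1 each in Lss and Insig1, against 33.8% of windows that hold at least 1. All 4 also hold GC boxes, which are in 32.7% of windows. The E-box was found in Insig1, 101 bases before its start, and in 6.02% of windows. Of 52 other genes on the pathway lists below, 41 had a window; 26 of these genes held an NF-Y box in at least 1 window and 0 held the SRE letters. The 33.8% is per window, whereas some of these genes had more than 1 window. These are matches of exact letters, so sites that differ from them were not counted, and binding was not measured.

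**Figure D1:**
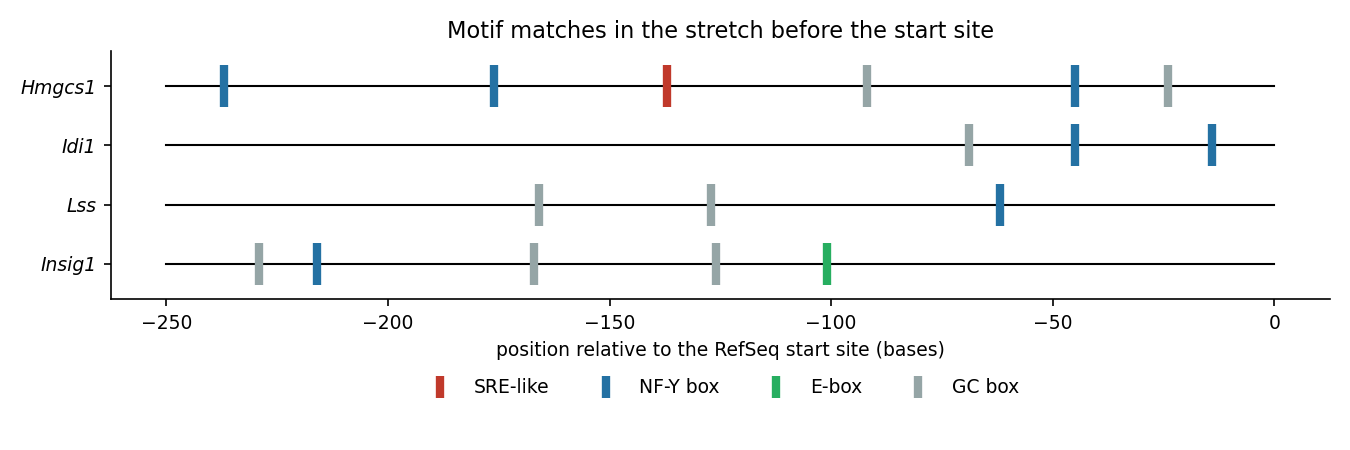
Motif matches (coloured ticks, at each match's first base) in the 250 bases before the RefSeq start sites of Hmgcs1, Idi1, Lss and Insig1; the horizontal axis is the distance from the start in bases. The SRE-like match lies 137 bases before the Hmgcs1 start, and NF-Y boxes are present in all 4.

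Levels are taken as RPM, that is, reads per 1e6 reads. Whether that total is of sequenced or of aligned reads was not established. The implied depth was 33200000 to 51200000 reads per library, so that 3 reads equal 0.0585 to 0.0904 RPM. The smallest value of any of the 7 genes, Lss in PBS replicate 1, equals about 168 reads. Counting error alone, as 1 over the square root of the estimated reads, came to 1.96 to 7.72% over the 7 genes and 7 libraries, and in DT it was close to the spread between libraries for Fdps (2.13% against 2.5%), Sqle (3.59% against 4.45%) and Lss (5.25% against 6.90%). Of 12 genes that define endothelium, among them Cdh5, Kdr and Tek, 5 in DT and all 12 in PBS averaged below 1 RPM, and their summed level was 10.2 to 18.7 RPM in DT and 1.45 to 9.35 RPM in PBS. The values that follow are therefore those of mixed sorted RNA and are not assigned to endothelium. All 10 neutrophil and all 8 monocyte and macrophage markers rose, with sums of 53389 to 57102 RPM in DT against 1606 to 3035 RPM in PBS for neutrophil genes and of 6635 to 8216 RPM in DT against 377 to 749 RPM in PBS for monocyte and macrophage genes. All 8 T and natural killer markers rose as well (322 to 339.5 RPM summed in DT, 23.1 to 52.5 RPM in PBS), 8 of 10 B-lineage markers fell (3277 to 3718 RPM in DT, 5202 to 7685 RPM in PBS), and 8 of 10 erythroid markers fell and 2 rose, with 3 lower and 2 higher by voom (1128 to 1507 RPM in DT, 846 to 10677 RPM in PBS). Of 12 markers of cycling cells 2 fell, with sums of 2531 to 2783 RPM in DT and 2581 to 4678 RPM in PBS. Of 5 tested plasma cell genes 2 rose and 2 fell (559.7 to 712 RPM in DT, 371 to 636 RPM in PBS), and 0 of 5 tested megakaryocyte and platelet genes passed, also at an unadjusted p under 0.05 and with voom (50.7 to 153 RPM in DT, 51.9 to 214 RPM in PBS). The part of these shifts in the results below was not tested, and in such samples fewer cells of a type and less RNA per cell cannot be told apart.

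Of the 7 genes only Fdps rose in DT, 2.07-fold by the ratio of means, and none fell. Limma on log2(RPM + 1), with p adjusted over the 14100 genes that averaged at least 1 RPM over the 7 libraries, called 1 of 7 higher, against 13.4% of all tested genes, and 0 of 7 lower, against 18.6%. At an unadjusted p under 0.05 the counts were the same, and limma voom on estimated reads also gave 1 higher and 0 lower. All 7 averaged at least 1 RPM in each group. The median log2 change was 0.33 over the 7 genes and -0.23 over all tested genes. Because of that shift each change is also given relative to the median gene. Under median-ratio scaling, which brings the median of all genes to -0.02, 64.3% of all calls were rises, against 41.9% as deposited.

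**Figure D2:**
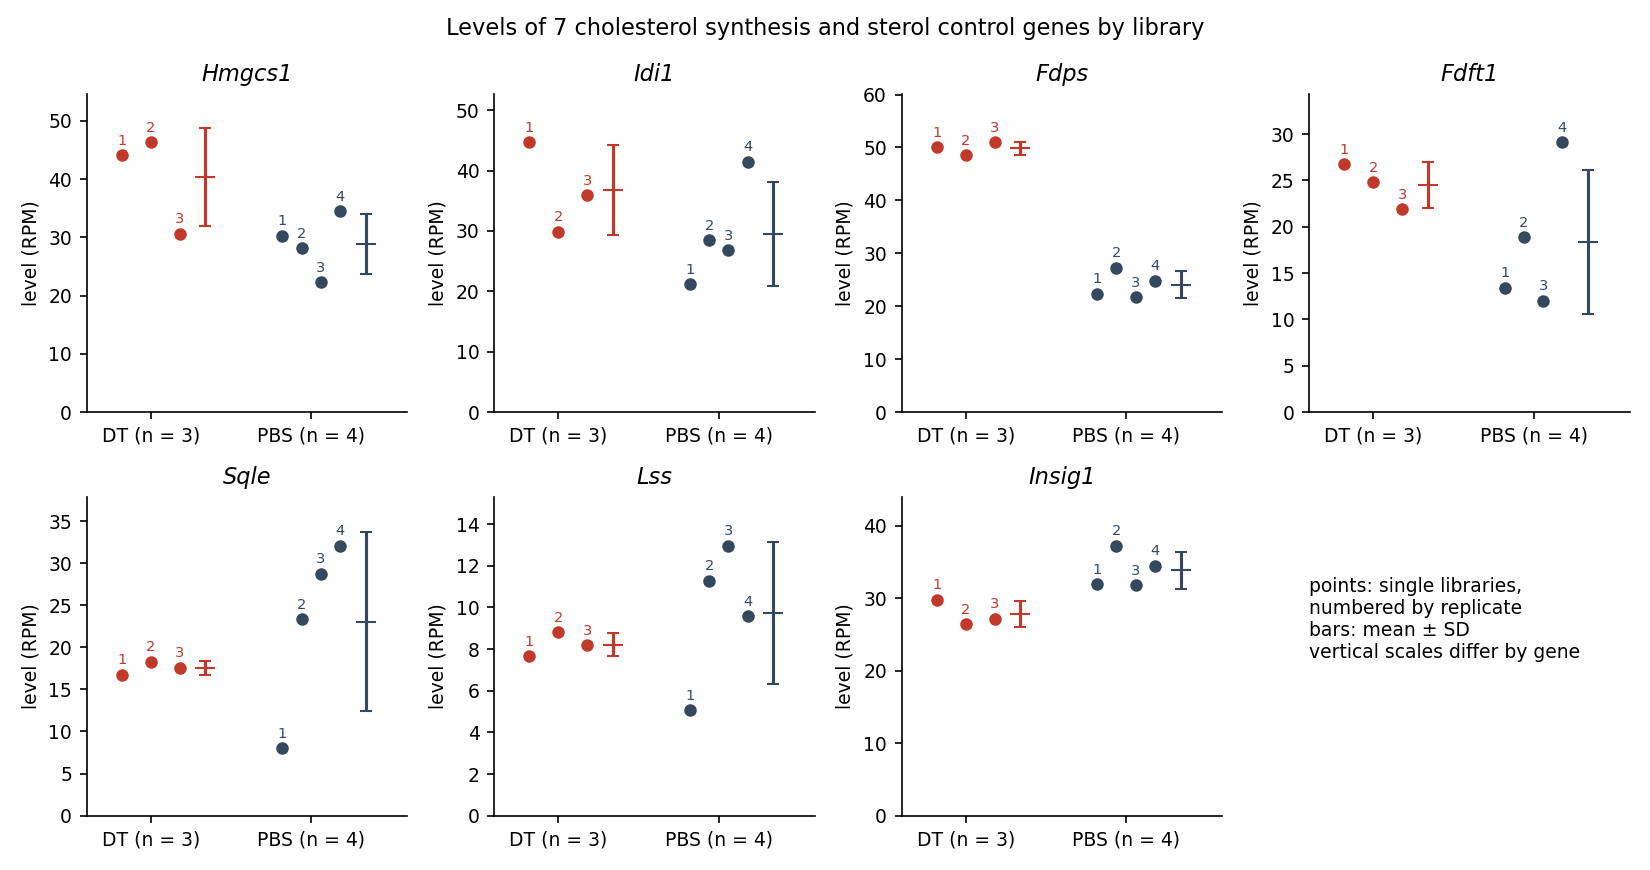
Level of each of the 7 genes in RPM (vertical axes start at 0 and differ in scale) in the 3 DT and 4 PBS libraries; points are libraries numbered by replicate, bars are mean ± SD. Fdps in DT (48.5 to 51.0 RPM) lies above all PBS libraries, Insig1 in DT (26.5 to 29.8 RPM) below them, and the other 5 genes overlap between groups.

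Hmgcs1 encodes the cytosolic synthase that joins acetyl-CoA and acetoacetyl-CoA into the compound from which mevalonate is made (chromosome 13 from 119690379 to 119708260 in mm10, plus strand, 11 exons). It was at 44.1, 46.3 and 30.6 RPM in DT replicates 1 to 3 and at 30.3, 28.2, 22.3 and 34.5 RPM in PBS replicates 1 to 4. DT replicates 1 and 2 were the highest libraries, whereas DT replicate 3 lay among the PBS values. The means were 40.4 ± 8.49 RPM in DT (SD, n = 3) and 28.8 ± 5.10 RPM in PBS (SD, n = 4). The log2 change of 0.47 (SE 0.21, 95% interval -0.01 to 0.94; 0.69 relative to the median gene) missed the threshold (limma, adjusted p = 0.120). Median-ratio scaling brought it past the threshold (log2 change 0.69, adjusted p = 0.0382). An antisense gene, Gm48342, covers 6190 bases of the Hmgcs1 locus, and whether counting used strand is not stated in the sources used here.

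Idi1 encodes the isomerase that turns isopentenyl diphosphate into dimethylallyl diphosphate, the pair of building blocks of all isoprenoids (chromosome 13 from 8885501 to 8892451, plus strand, 5 exons). Its level was 44.7, 29.9 and 35.9 RPM in DT replicates 1 to 3 and 21.2, 28.4, 26.8 and 41.4 RPM in PBS replicates 1 to 4. PBS replicate 4 was above DT replicates 2 and 3, so the groups overlapped. The log2 change was 0.33 (SE 0.24, 95% interval -0.21 to 0.87; 0.56 relative to the median gene) and missed the threshold (limma, adjusted p = 0.317).

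Fdps encodes farnesyl diphosphate synthase, which makes the compound at the branch point between sterols and other isoprenoids and is the target of nitrogen-containing bisphosphonates (chromosome 3 from 89093588 to 89101959, minus strand, 11 exons). It was at 50.1, 48.5 and 51.0 RPM in DT replicates 1 to 3 and at 22.4, 27.3, 21.7 and 24.8 RPM in PBS replicates 1 to 4. Every DT library was above every PBS library, as for 16.1% of all tested genes, and the DT libraries lay closest together of the 7 genes, with a coefficient of variation of 2.5% in DT and 10.5% in PBS. The means were 49.9 ± 1.25 RPM in DT (SD, n = 3) and 24.0 ± 2.54 RPM in PBS (SD, n = 4), a ratio of 2.07. Fdps rose by 1.03 on the log2 scale (SE 0.16, 95% interval 0.67 to 1.39; limma, adjusted p = 0.00129), or by 1.25 relative to the median gene. Gm43738, an annotated gene on the same strand that shares 7512 bases with Fdps, was at 0.0149 to 0.190 RPM in DT and 0.000909 to 0.519 RPM in PBS, so almost no reads of the shared stretch were assigned to it.

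Fdft1 encodes squalene synthase, which joins a pair of farnesyl diphosphates in the first step committed to sterols (chromosome 14 from 63145150 to 63179578, minus strand, 10 exons). It was at 26.8, 24.8 and 21.9 RPM in DT replicates 1 to 3 and at 13.4, 18.9, 12.0 and 29.1 RPM in PBS replicates 1 to 4. All DT libraries were above PBS replicates 1 to 3 and below PBS replicate 4. The log2 change was 0.47 (SE 0.29, 95% interval -0.18 to 1.12; 0.70 relative to the median gene) and missed the threshold (limma, adjusted p = 0.239). The last 774 bases of the locus overlap the end of Ctsb, a cathepsin gene on the other strand, which averaged 741 ± 201 RPM in DT (SD, n = 3) and 271 ± 19.7 RPM in PBS (SD, n = 4). Reads of the overlap cannot be told apart without strand, and their part in the Fdft1 values was not tested. Both genes averaged higher in DT than in PBS (24.5 and 18.4 RPM for Fdft1). By library, Ctsb was at 663, 592 and 969 RPM in DT replicates 1 to 3 and at 246, 294, 270 and 272 RPM in PBS replicates 1 to 4.

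Sqle encodes squalene epoxidase, an oxygen-using and often rate-limiting step (chromosome 15 from 59315077 to 59331192, plus strand, 11 exons). It was at 16.7, 18.3 and 17.6 RPM in DT replicates 1 to 3 and at 7.98, 23.4, 28.7 and 32.1 RPM in PBS replicates 1 to 4. PBS replicate 1 was the lowest of all 7 libraries, and the other PBS libraries were above every DT library. The log2 change of -0.22 (SE 0.40, 95% interval -1.12 to 0.69; 0.01 relative to the median gene) missed the threshold (limma, adjusted p = 0.711). Without PBS replicate 1 Sqle was lower in DT by the same test (log2 change -0.64, adjusted p = 0.0258), so whether it passed depended on this library. In that setting 3628 of 14123 tested genes were lower, against 2622 of 14100 in the reported fit. The change of Sqle was 0.01 under median-ratio scaling.

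Lss encodes lanosterol synthase, which folds the epoxide into the first sterol ring system (chromosome 10 from 76531588 to 76557138, plus strand, 22 exons). It was at 7.67, 8.80 and 8.19 RPM in DT replicates 1 to 3 and at 5.05, 11.3, 13.0 and 9.59 RPM in PBS replicates 1 to 4. As with Sqle, PBS replicate 1 was the lowest library and the other PBS libraries were above all DT libraries. The log2 change of -0.15 (SE 0.32, 95% interval -0.86 to 0.55; 0.07 relative to the median gene) missed the threshold (limma, adjusted p = 0.741). It was -0.41 without PBS replicate 1, still not past the threshold, and 0.06 under median-ratio scaling. The antisense gene 4930483K19Rik, which covers 11268 bases of the locus, averaged 0.0176 RPM in DT and 0.0600 RPM in PBS, both below 3 reads.

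PBS replicate 1 also stood apart in its erythroid markers, which summed to 846 RPM there and to 6591 to 10677 RPM in the other PBS libraries, against 1128 to 1507 RPM in DT. Its sums for neutrophil (3035 RPM), monocyte and macrophage (749 RPM) and T and natural killer genes (52.5 RPM) were the highest of the PBS libraries. So were those for plasma cell (636 RPM) and cycling genes (4678 RPM). Whether these bear on Sqle and Lss was not tested.

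Insig1 encodes the endoplasmic reticulum protein that retains Scap when sterols are plentiful (chromosome 5 from 28071363 to 28078662, plus strand, 5 exons). It was at 29.8, 26.5 and 27.2 RPM in DT replicates 1 to 3 and at 31.9, 37.3, 31.8 and 34.5 RPM in PBS replicates 1 to 4. Every DT library was below every PBS library, as for 24.7% of all tested genes, but the distance was small. The means were 27.8 ± 1.76 RPM in DT (SD, n = 3) and 33.9 ± 2.59 RPM in PBS (SD, n = 4), a ratio of 0.821. The log2 change of -0.27 (SE 0.16, 95% interval -0.63 to 0.08) missed the threshold (limma, adjusted p = 0.213) and was -0.05 relative to the median gene.

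The spread between libraries differed widely among the 7 genes. Within PBS the coefficient of variation was 46.3% for Sqle, 42.2% for Fdft1, 35.0% for Lss and 29.0% for Idi1, and it was 17.7% for Hmgcs1, 10.5% for Fdps and 7.64% for Insig1. Within DT it was highest for Hmgcs1 (21.0%) and Idi1 (20.2%) and at most 10.05% for the other 5 genes. PBS replicate 4 held the highest PBS value of Hmgcs1, Idi1, Fdft1 and Sqle, and PBS replicate 1 the lowest of Idi1, Sqle and Lss.

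Divided by the length of the longest annotated transcript, Fdps had the highest level of the 7 genes in both groups and Lss the lowest. Fdps was at 36.1 ± 0.903 RPM per kb in DT and 17.4 ± 1.84 RPM per kb in PBS, and Lss at 1.76 ± 0.122 RPM per kb in DT and 2.08 ± 0.730 RPM per kb in PBS (SD, n = 3 and 4). In DT the order after Fdps was Idi1 (12.2 ± 2.46), Hmgcs1 (11.7 ± 2.45), Insig1 (10.3 ± 0.654), Fdft1 (6.62 ± 0.666) and Sqle (6.36 ± 0.283), all in RPM per kb. In PBS it was Insig1 (12.6 ± 0.959), Idi1 (9.74 ± 2.83), Sqle (8.35 ± 3.86), Hmgcs1 (8.32 ± 1.47) and Fdft1 (4.97 ± 2.10). Idi1 and Hmgcs1 lay within each other's SD in DT, as did Fdft1 and Sqle in DT and Idi1, Sqle and Hmgcs1 in PBS. Insig1 in DT lay within the SDs of Idi1 and Hmgcs1, but both of these lay outside the smaller SD of Insig1. In PBS, Insig1 lay just within the SD of Idi1, and Idi1 lay outside that of Insig1.

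Shares of the summed level of the 7 genes do not depend on how the libraries were scaled. The sum was 192 to 219.9 RPM in DT and 132 to 206 RPM in PBS, with overlap. Fdps made up 24.4 ± 1.92% of it in DT and 14.6 ± 2.12% in PBS, and Insig1 13.6 ± 0.551% in DT and 20.6 ± 3.06% in PBS (SD, n = 3 and 4). For both genes the groups did not overlap, with Fdps at 22.8 to 26.5% in DT and 12.0 to 16.9% in PBS, and Insig1 at 13.0 to 14.1% in DT and 16.7 to 24.1% in PBS. Shares within a library are tied, so a larger share of Fdps by itself lowers that of Insig1. The lower Insig1 share is therefore not independent of the Fdps share, and how much of it follows from this tie was not tested. The level of Insig1 itself was also lower in every DT library (26.5 to 29.8 RPM, against 31.8 to 37.3 RPM in PBS). That change missed the threshold (limma, adjusted p = 0.213). Sqle made up 7.62 to 9.14% in DT and 6.03 to 18.4% in PBS, and the shares of Hmgcs1, Idi1, Fdft1 and Lss overlapped as well.

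**Figure D3:**
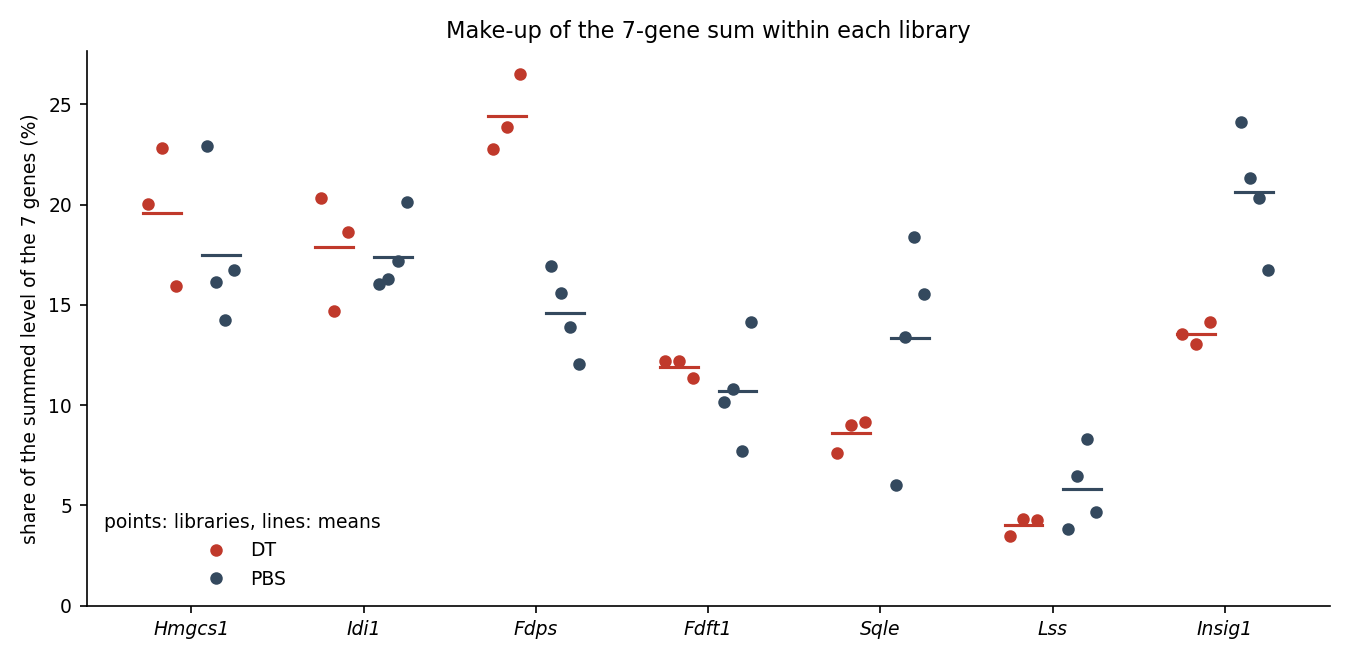
Share of each gene in the summed level of the 7 genes (vertical axis, %) in each DT and PBS library; points are libraries and lines are group means. Fdps (24.4% in DT, 14.6% in PBS) and Insig1 (13.6% in DT, 20.6% in PBS) are the genes whose groups do not overlap. Shares within a library are tied, so these are not independent results.

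Along the route from acetyl-CoA to cholesterol, 4 of the 20 enzyme genes analysed rose, 1 fell and 15 did not pass the test, against 13.4% of all tested genes higher and 18.6% lower. The 5 that passed were Fdps, Mvd, Msmo1, Sc5d and Acat2. Mvd, the decarboxylase that makes isopentenyl diphosphate, was at 13.7, 14.4 and 17.0 RPM in DT and at 8.10, 4.88, 3.72 and 6.52 RPM in PBS replicates 1 to 4. It rose by 1.27 on the log2 scale (SE 0.29; limma, adjusted p = 0.00852). Msmo1, which begins removal of the methyl groups of lanosterol, was at 49.3, 43.2 and 46.3 RPM in DT and at 14.8, 27.4, 19.2 and 21.8 RPM in PBS. It rose by 1.15 (SE 0.22; limma, adjusted p = 0.00358). Neither Mvd nor Msmo1 overlapped between groups. Sc5d, a desaturase late in the route, was at 66.4, 44.1 and 39.9 RPM in DT and at 25.2, 25.8, 30.9 and 32.8 RPM in PBS, and rose by 0.76 (SE 0.21; limma, adjusted p = 0.0212). Of the 20 enzyme genes 5, namely Fdps, Mvd, Msmo1, Sc5d and Hsd17b7, had every DT library above every PBS library, as 16.1% of all tested genes did; Hsd17b7, named after its values were seen, did not pass the test (limma, adjusted p = 0.0503). The call of Sc5d was lost without DT replicate 1, its highest library (adjusted p = 0.0985), with no filter (0.0537) and with a replicate block (0.0506).

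Acat2, whose thiolase makes the acetoacetyl-CoA that Hmgcs1 uses, was the enzyme gene that fell. It was at 29.9, 38.2 and 40.3 RPM in DT and at 56.1, 57.1, 48.2 and 57.0 RPM in PBS, a log2 change of -0.59 (SE 0.16; limma, adjusted p = 0.0215). Its change relative to the median gene was -0.36. The call was lost under median-ratio scaling (adjusted p = 0.134), without DT replicate 1 (0.0986), DT replicate 2 (0.0521) or PBS replicate 4 (0.0554), and with a replicate block (0.0905).

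The enzyme genes other than the 6 described above had 1 rise and 1 fall among 4 before farnesyl diphosphate and 2 rises among 10 after lanosterol, with median log2 changes of -0.05 and 0.25. With voom on estimated reads the counts over these 20 enzymes were 5 higher and 1 lower.

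**Figure D4:**
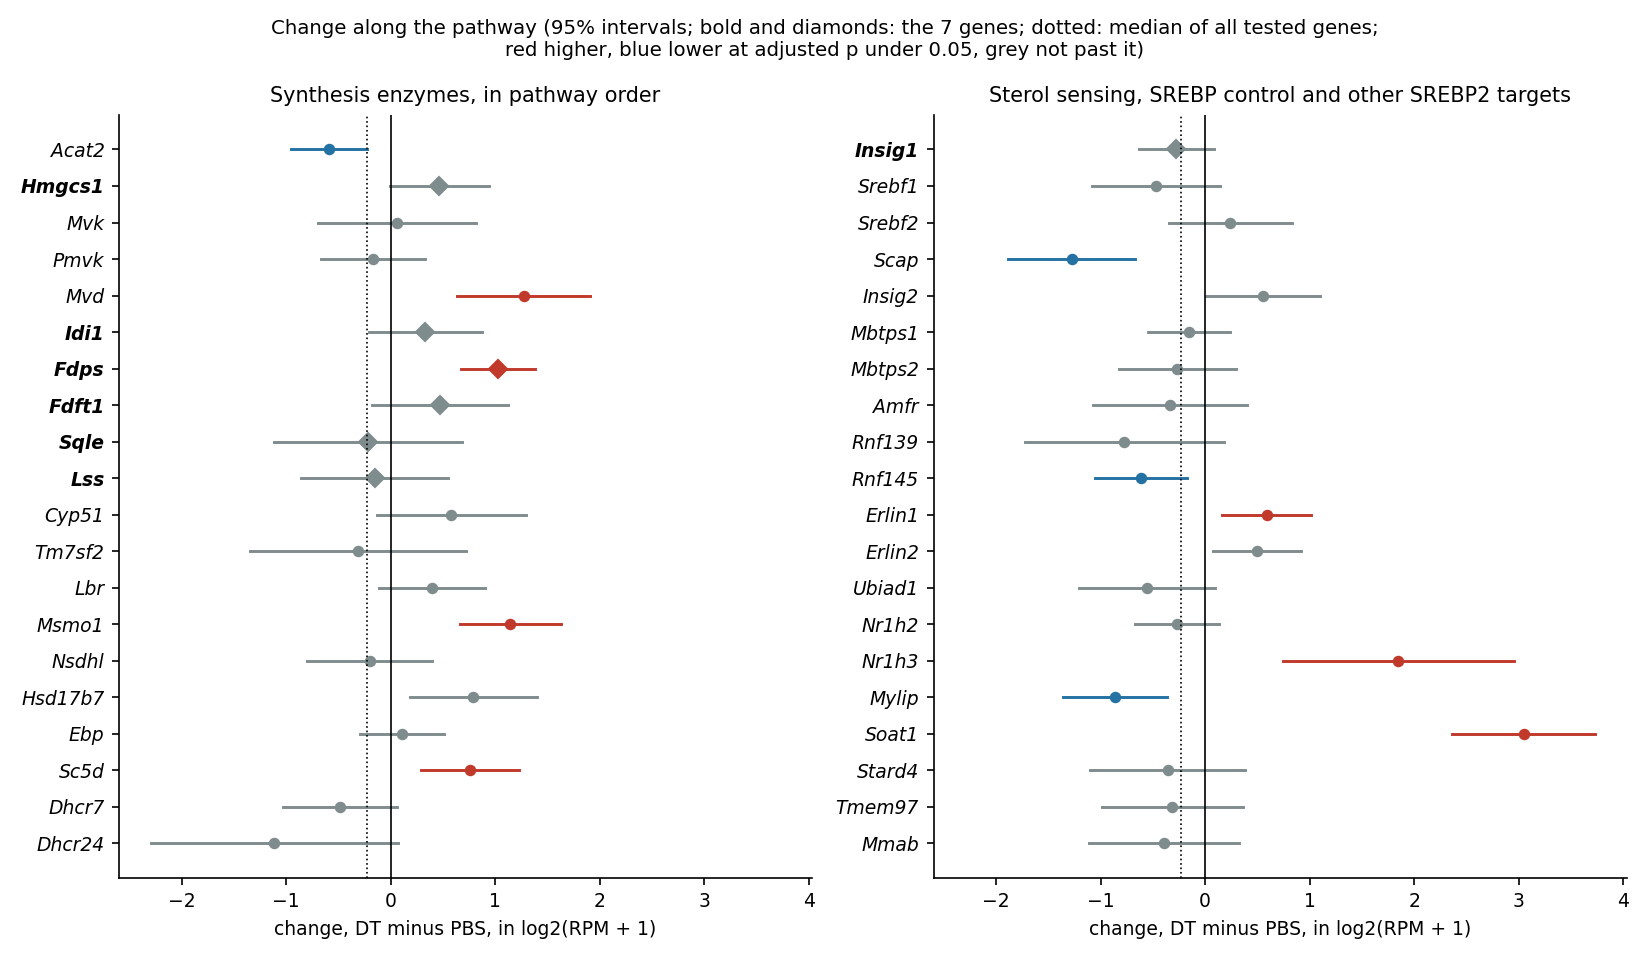
Change of each gene in log2(RPM + 1), DT minus PBS (horizontal axis, points with 95% intervals), for 20 synthesis enzymes in pathway order (left) and for sensing and control genes and other SREBP2 targets (right). Fdps, Mvd, Msmo1, Sc5d, Soat1, Nr1h3 and Erlin1 are marked as higher in DT and Acat2, Scap, Mylip and Rnf145 as lower; the dotted line is the median of all tested genes, -0.23.

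Among 16 genes of sterol sensing and SREBP control, 3 rose, 3 fell and 10 did not pass, with a median log2 change of -0.27 (-0.23 over all tested genes). Against the 13.4% higher and 18.6% lower of all tested genes, these counts do not set the list apart. Soat1, which esterifies cholesterol for storage and is known from macrophages, was at 122, 113 and 127 RPM in DT and at 26.1, 8.51, 11.8 and 13.4 RPM in PBS. It rose by 3.05 on the log2 scale (SE 0.31; limma, adjusted p = 8.56e-05). Nr1h3, the oxysterol receptor LXR alpha, was at 4.03, 5.56 and 15.7 RPM in DT and at 0.934, 1.76, 0.290 and 2.90 RPM in PBS. It rose by 1.85 (SE 0.50; limma, adjusted p = 0.0186), a call lost without DT replicate 3 (0.0816), with no filter (0.0911) and with voom (0.0525). Beside these 2 rises, the monocyte and macrophage markers summed to 6635 to 8216 RPM in DT and 377 to 749 RPM in PBS; their part in them was not tested.

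Scap, the escort of SREBP, was at 7.98, 14.1 and 9.28 RPM in DT and at 17.8, 29.8, 26.9 and 32.0 RPM in PBS. Every DT library was below every PBS library, and Scap fell by 1.28 on the log2 scale (SE 0.27; limma, adjusted p = 0.00658), or by 1.05 relative to the median gene. Mylip, a ubiquitin ligase whose gene is a target of LXR, was at 30.2, 19.1 and 26.3 RPM in DT and at 54.4, 37.2, 55.9 and 38.9 RPM in PBS. It had a log2 change of -0.86 (SE 0.22; limma, adjusted p = 0.0163), and its call was lost under median-ratio scaling (0.0754) and without DT replicate 2 (0.0725). Erlin1, which rose, and Rnf145, which fell, complete the 6 and were named after their values were seen. Erlin1 was at 43.0 ± 8.94 RPM in DT and 28.0 ± 3.02 RPM in PBS, and Rnf145 at 21.6 ± 3.32 RPM in DT and 33.7 ± 5.36 RPM in PBS (SD, n = 3 and 4). The log2 change was 0.59 for Erlin1 (SE 0.19; limma, adjusted p = 0.0401) and -0.61 for Rnf145 (SE 0.20; limma, adjusted p = 0.0382). The Erlin1 call was lost with no filter, with a replicate block and without DT replicate 1 or 2 or PBS replicate 3 or 4, with adjusted p of 0.0105 to 0.167 over its 14 alternatives. That of Rnf145 was lost with no filter, with a replicate block, under median-ratio scaling and without any 1 library other than PBS replicate 1, with adjusted p of 0.0134 to 0.148. Both encode proteins of the endoplasmic reticulum membrane.

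Insig2, the paralog of Insig1, was at 24.9, 21.3 and 18.1 RPM in DT and at 10.2, 18.1, 13.2 and 16.2 RPM in PBS. The lowest DT library lay just below the highest PBS library, and the log2 change of 0.56 (SE 0.24) missed the threshold (limma, adjusted p = 0.107). Median-ratio scaling brought it past the threshold (0.0321). Srebf2, the gene of SREBP2, was named after its values were seen and was at 21.4 ± 5.85 RPM in DT and 18.0 ± 4.86 RPM in PBS (SD, n = 3 and 4), a difference within the SDs. Idi2, the paralog of Idi1, was listed at 0 apart from the offset in all 7 libraries. Insig2 did not pass with voom either, and was higher at an unadjusted p of 0.0462.

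Among 3 tested SREBP2 targets outside the synthesis route, 0 passed with limma, with voom or at an unadjusted p under 0.05. Mmab, an enzyme of vitamin B12 metabolism, was at 8.59 ± 0.620 RPM in DT and 12.2 ± 4.57 RPM in PBS (limma, adjusted p = 0.377), and Stard4, a carrier of cholesterol between membranes, at 15.2 ± 5.53 RPM in DT and 19.6 ± 5.87 RPM in PBS (limma, adjusted p = 0.432; SD, n = 3 and 4), both with overlap. Of 9 genes of the non-sterol isoprenoid branch, 0 passed with limma or voom; at an unadjusted p under 0.05, 2 were lower and 0 higher. These were Nus1, a subunit of dolichol synthesis, at 16.0 ± 1.78 RPM in DT and 31.5 ± 15.1 RPM in PBS, and Fnta, a subunit of protein farnesyltransferase, at 22.4 ± 6.50 RPM in DT and 32.8 ± 5.77 RPM in PBS (SD, n = 3 and 4). Of 7 tested fatty acid genes known as SREBP1 targets 2 fell. Elovl6, a fatty acid elongase, was at 34.4 ± 2.48 RPM in DT and 58.4 ± 9.84 RPM in PBS (limma, adjusted p = 0.0109), and Acaca, acetyl-CoA carboxylase, at 7.05 ± 1.67 RPM in DT and 14.5 ± 3.45 RPM in PBS (adjusted p = 0.0237). The Elovl6 call was lost without DT replicate 3 (0.0543), with a replicate block (0.0505) and under median-ratio scaling (0.0586). That of Acaca was lost without DT replicate 1 (0.0564), DT replicate 3 (0.106) or PBS replicate 3 (0.0517) and under median-ratio scaling (0.0651). Over all 49 tested genes of these lists 6 rose and 6 fell, against 13.4% and 18.6% of all tested genes. Without PBS replicate 1 the number that fell was 13, without DT replicate 1 or DT replicate 3 it was 3, and under median-ratio scaling 11 rose and 1 fell. The other 3 of the 52 listed genes averaged below 1 RPM over the libraries and were not tested.

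Predicted genes, RIKEN and other clone names, pseudogenes and names turned into dates were left out of a ranking by likeness to the 7 genes. Of the other tested genes, the 5 with the highest mean Pearson correlation to the 7 genes over the 7 libraries were Rai14, Enoph1, Tmx1, Polr3c and Got2, at 0.523 to 0.537 on log2(RPM + 1). Correlations of single pairs behind these means reached from -0.18 to 0.92. The points share libraries and depth, and the group difference enters them.

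**Figure D5:**
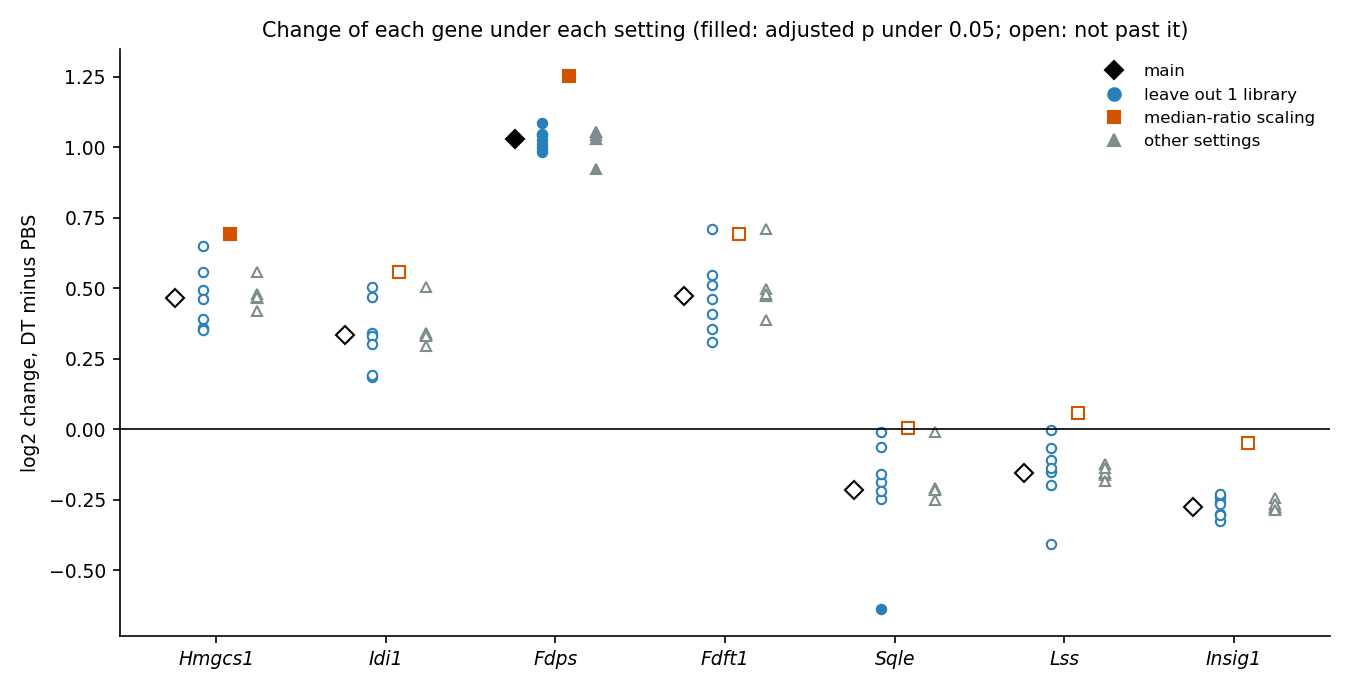
Change of each of the 7 genes, DT minus PBS (vertical axis, log2), in the reported fit and under 14 other settings; filled symbols are past an adjusted p of 0.05. Fdps is filled in every setting (0.92 to 1.25), Hmgcs1 only under median-ratio scaling, and Sqle only without PBS replicate 1.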

How the data were processed

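RNA of 3 DT and 4 PBS samples was sequenced. Per the labels' protocols, 1 ng of total RNA was amplified with a SMARTer ultra-low input kit, the library with 14 further cycles, and read as single 50-base reads. Alignment tools and build, per the submitters' processing notes, were STAR 2.5.3a, Partek and mm10; the sources used here do not state annotation, counting or strand. The authors deposited 1 table in a unit its name calls FPKM, but the values behave as RPM plus an offset of 0.0001. In each library 1029 to 1206 genes shared the most frequent value above the offset, taken as 1 read, although the 10th to 90th percentiles of their lengths were 112 to 212 and 4869 to 5513 bases, so no division by length had been made. Of values up to 20 such steps, 60.8% to 62.8% were whole within 0.02 of a step, so reads were not recovered and a count test was not the main one. The design had assumed normalized values, and its test was kept.

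The 14100 genes averaging at least 1 RPM were fitted with limma 3.58.1 in R 4.3.3 on log2(RPM + 1) for DT against PBS. The fit had an intensity trend and a two-sided test, and p was Benjamini-Hochberg adjusted over all of these genes, with a threshold of 0.05. This scale understates changes of low genes. The fit was checked on simulated data; it missed many of the smaller known changes, so a gene that missed the threshold is not shown to be unchanged. p-values measure the spread between these samples. Positions and lengths are from GENCODE vM21 (mm10) and promoters from RefSeq (GRCm38.p6). Named are the 7 genes, the called genes of each pathway list, at most 4 by p (otherwise the 2 of smallest p), and the 5 genes most alike; Srebf2, Erlin1, Rnf145 and Hsd17b7 were added after their values were seen, as were the overlapping genes Ctsb, Gm43738, Gm48342 and 4930483K19Rik. The 7 genes and all lists were chosen with earlier results of these data known. Some genes of the pathway are not reported here and were left out of the lists and their counts. Samples with the same replicate number were checked for pairing. Alternatives covered pseudocount, filter, scaling, a replicate block, each library left out, and voom on reads estimated from the step. Amplified reads are not independent molecules, so floors in reads cover counting error only.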

Additional observations from a re-analysis of the deposited data

Results flagged for a closer look

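Acat2 was at 48.2 RPM in PBS replicate 3, against 56.1 to 57.1 RPM in the other PBS libraries, a gap of 0.888 of the group's range, past the 95% critical value of Dixon's test for 4 samples. It was 1 of 26 sets of PBS values examined, and chance flags about 1 in 20.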

How the results depend on the processing

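Fdps passed the threshold in DT under all 14 alternatives (log2 change 0.92 to 1.25, adjusted p 0.000274 to 0.0133), and Idi1, Fdft1, Lss and Insig1 under none of them. Under median-ratio scaling 2 of the 7 genes were higher, with Hmgcs1 added, and the changes of Sqle (0.0051) and Lss (0.0561) turned sign. Of the 7 genes, 1 was higher with each library left out, and 0 to 1 lower. Among the other pathway genes 11 were higher and 1 lower under median-ratio scaling and 3 higher with no filter, and 4 to 9 were higher and 3 to 13 lower with 1 library left out. Over all tested genes, 1712 were lower with no filter and 1323 under median-ratio scaling. With 1 library left out 1208 to 3628 were lower (1500, 1609 and 1208 without DT replicates 1, 2 and 3, and 3628 without PBS replicate 1). Same-numbered samples did not deviate together (correlations 0.042, 0.0485 and 0.0102), so the numbers were not taken as pairs; a replicate block over 6 libraries gave 1577 genes lower in all and 3 of the pathway genes lower. The cause of the other shifts was not tested. Over 25 genes and 349 recomputed changes, 307 kept direction and call, 35 lost the call, 5 gained it and 2 turned sign. At this depth, counting error is at most 7.72% for any value of the 7 genes.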
